A study of Mus musculus with 304 samples.

Results

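Single dentate granule cells of mice carrying an Id2 virus were compared with granule cells carrying a GFP virus, by Patch-seq, which sequences the cytosol that a patch pipette takes up from a single cell. The members were the 71 Id2 cells and 59 GFP cells that passed the authors' quality control, 130 of the 252 passing cells and of 291 cells with counts in the series (304 samples were labelled). The study's title concerns the rewiring of mossy fibres, the granule cell axons, by Id2. Both groups were sampled 1 month after an adeno-associated virus (AAV), so the time after injection and the kind of virus are common to them. The gene delivered was Id2 in Id2_OE and GFP in GFP_Control. No run of cell titles holds both groups. Title run, and a virus dose that is not given, therefore cannot be told apart from the gene delivered. The labels give no animal, strain, age, promoter or virus dose. Each group therefore stands as 1 sample, and no difference between the groups was tested.

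Cells carry titles in 2 blocks of numbers. The first, up to 95, holds 43 Id2 cells (titles 26 to 73) between 2 runs of GFP cells, 22 with titles 1 to 25 and 21 with titles 74 to 95. The second, above 100, holds 16 GFP cells (up to 120) and 28 Id2 cells (above 120, up to 160). Every ratio was taken within each block, here called a title set, as well as over all cells, and what a block stands for is not given in the labels. Levels are CPM, the reads of a gene in all cells of a group over the total of their reads without those of Id2. For Id2 itself the total includes its own reads. Intervals are exact at 95% and cover counting error only, not the spread between cells or animals. Log2 ratios are Id2 over GFP after 1 CPM was added to both levels.

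Id2 is an inhibitor of DNA binding, a helix-loop-helix protein without the basic region that touches DNA. It pairs with E proteins such as those encoded by Tcf3, Tcf4 and Tcf12, and so keeps them and their tissue-specific partners from binding E-box motifs. Granule cells receive the input of the entorhinal cortex and contact CA3 pyramidal cells through the large terminals of the mossy fibres.

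Reads in genes ranged from 780899 to 12639081 per cell with Id2 (median 3317227) and from 312004 to 7596250 with GFP (median 3957794). At 100000 reads per cell, a median of 2712 genes was detected with Id2 and 3114 with GFP. The range was 725 to 5625 genes with Id2 and 1359 to 4961 with GFP. The deepest Id2 cell, with 12639081 reads, had 1303 genes at that depth, and summed levels weigh deep cells most. Of 8385 pairs of cells none was near-identical, the highest correlation over genes being 0.56. The granule cell markers Calb1 (a read in 66 of 71 Id2 and 55 of 59 GFP cells), Slc17a7 (62 and 56), Dock10 (59 and 55) and Prox1 (51 and 44) were widely present, whereas Dsp was rare (5 and 7 cells). Microglia markers, which mark the immune cells of brain tissue, summed to at least 1000 CPM in 12 Id2 cells and 2 GFP cells. Y-linked genes reached 5 CPM in 2 of the 86 cells of the first title set and in 29 of the 44 cells of the second, in similar shares with either virus within a set.

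Id2 itself separated the groups in every cell. It ranged from 1446 to 105869 CPM in Id2 cells, with a median of 26811 CPM, and from 0 to 575 CPM in GFP cells, with a median of 0.17 CPM. The lowest Id2 cell thus lay above the highest GFP cell. Id2 (ENSMUSG00000020644.9, GRCm38 chromosome 12, 25093799 to 25097140, minus strand) had a log2 ratio of 8.76 in the first title set and 8.36 in the second. Reads of the viral and of the cell's own Id2 cannot be told apart in these counts. The other Id genes were close to absent with either virus: Id1 stood at 0.41 CPM against 0 reads, Id4 at 0.33 against 0.09 CPM, and Id3 had 0 reads against 2. Tcf4, the most widely detected E protein gene, stood at 692 CPM with Id2 and 799 CPM with GFP. Tcf12 had 37.1 against 34.6 CPM, but log2 ratios of -0.87 and 3.90 in the 2 title sets. Tcf3 had 8.54 against 7.64 CPM, a log2 ratio of 0.14, but -2.27 in the first title set. From the mean over cells its ratio was -0.52. Of 15 measured Id and helix-loop-helix regulators other than Id2, none was at least 2-fold apart in 1 direction in both sets. The repressor gene Bhlhe40 was highest among those with the same sign in both, at 477 against 234 CPM (0.98 and 1.67), and Mxi1, an antagonist of Myc, was lower, at 69.2 against 144.5 CPM (-0.96 and -1.37).

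**Figure D1:**
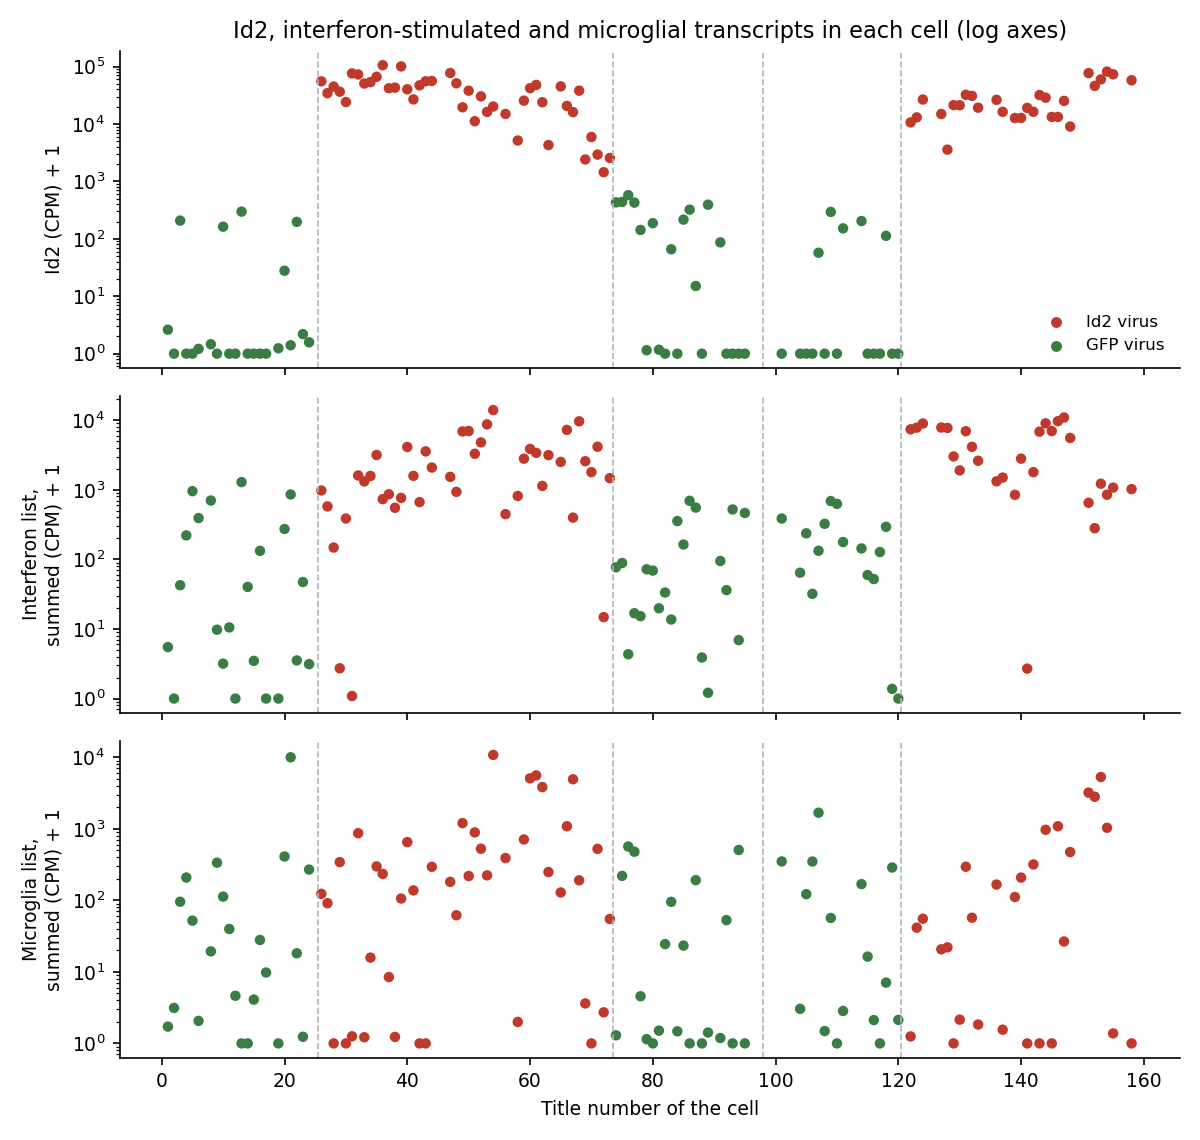
Level of Id2, summed level of 65 interferon-stimulated genes and summed level of 18 microglia markers in each of the 130 cells, in CPM + 1 on log axes, against the number in the cell's title; dashed lines part the 5 runs of titles. Id2 cells lie above all GFP cells for Id2, 46 of 71 Id2 cells lie above all GFP cells for the interferon list, and the microglia markers of the 2 groups overlap.

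Over the transcriptome the 2 title sets often disagreed. A gene counted as measured where 1 of the groups had a read of it in no fewer than 20% of its cells and 1 of the groups stood at 5 CPM or more, which left 7846 of 22800 genes. Of these, 352 (4.49%) were at least 2-fold higher with Id2 in both sets and 360 (4.59%) at least 2-fold lower in both, while 538 passed 2-fold in opposite directions. The sign was the same in both sets for 52.4% of genes, and the ratios of the 2 sets had a correlation of 0.13 across genes, which are not independent replicates and share the cells and depth of their libraries. A level in both Id2 title runs above all 3 GFP runs was found for 851 genes (10.8%) and a level below all 3 for 948 (12.1%). Both conditions held for 275 higher and 272 lower genes. The median log2 ratio of all measured genes was -0.05, with 3718 genes above 0 and 4128 below.

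**Figure D2:**
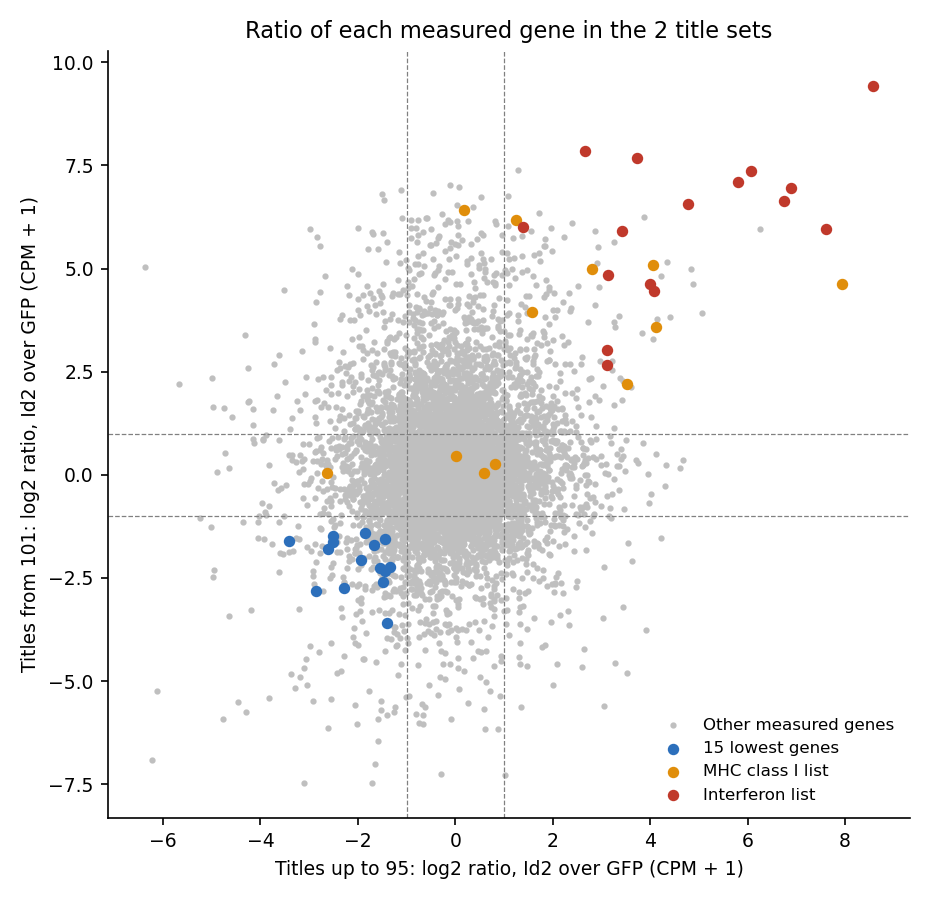
Log2 ratio of Id2 over GFP (CPM + 1) of each of 7846 measured genes in titles up to 95 (horizontal) and titles above 100 (vertical), with the 16 measured interferon-stimulated genes, the 12 measured MHC class I genes and the 15 lowest genes coloured and dashed lines at 2-fold. All 16 interferon-stimulated genes lie in the upper right corner, while the cloud of all genes has a correlation of 0.13.

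The highest and lowest genes were picked by the smallest of 4 ratios (from summed counts and from the mean over cells, in each title set), with the further conditions of no overlap between title runs and, after thinning, detection in no fewer than 40% of cells with the virus that had the higher level. These values are a description of the genes so chosen. Only 13 genes met the rule as higher. Among them, Ifit1 and Irf9 belong to the interferon-stimulated genes and B2m to MHC class I presentation. Outside these lists 9 met it, namely Stat3, Phgdh, Cirbp, Pak1, Pigp, Timp2, Tenm2, Ftl1 and Rtn4rl1. On the lower side 36 genes met the rule, of which the first 15 were Grm2, Slit1, C2cd4b, Smoc2, Tle1, Spry2, Akap5, Ezh1, Acsl4, Cdc40, Ypel1, B3galt2, Atp2c1, Adamts20 and Cap1.

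Type I interferons signal through a cell-surface receptor and its JAK kinases to Stat proteins such as Stat2, which join Irf9 in a complex that binds the interferon-stimulated response element (ISRE) in the promoters of its target genes. The targets include antiviral proteins, the components of the complex themselves and the machinery that presents peptides on MHC class I. Neurons express most of them at low levels until interferon reaches them.

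Ifit1, whose protein binds viral RNA, was the highest of the genes so ranked. It ranged from 0 to 5366 CPM per Id2 cell, with a median of 0.32 CPM and an upper quartile of 658 CPM, and from 0 to 5.91 CPM per GFP cell, with a median of 0 CPM. Thus 29 Id2 cells lay above the highest GFP cell, and the other 42 overlapped with the GFP cells. Over all cells Ifit1 (ENSMUSG00000034459.8, chromosome 19, 34640871 to 34650009, plus strand) stood at 533 CPM (530 to 536) against 0.13 CPM (0.09 to 0.19). After thinning to 100000 reads it was read in 40.8% of Id2 cells (29.3% to 53.2%) and 1.69% of GFP cells (0.04% to 9.09%). Its level was 441 and 721 CPM in the 2 Id2 title runs and at most 0.28 CPM in the 3 GFP runs.

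Irf9 and Stat2, which take part in interferon-activated transcription, were higher with Id2 in both title sets. Irf9 stood at 188 against 18.5 CPM, with log2 ratios of 3.11 and 3.02 in the 2 sets and 12 Id2 cells above every GFP cell. Stat2 stood at 145.7 against 29.4 CPM, but its ratio was 1.40 in the first set and 6.02 in the second; GFP cells with titles 1 to 25 had 60.5 CPM of it and those with titles above 100 up to 120 had 2.81 CPM. Irf7, a factor that drives interferon production, stood at 117.9 CPM against 0.24 CPM, and Irf1, another interferon-responsive factor, at 185 against 0.28 CPM. Both were read in a minority of Id2 cells (29 for Irf7 and 22 for Irf1), so that the median Id2 cell had 0 CPM of each.

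Among the effectors, the GTPase gene Irgm1 stood at 126.3 CPM (124.9 to 127.7) with Id2 and 0.07 CPM (0.04 to 0.11) with GFP. Lgals3bp, which encodes a secreted galectin-binding protein, stood at 103.9 CPM, while no GFP cell had a read of it, which makes it at least 7680-fold higher when 3 reads over the GFP group are taken as the limit. It was read in 21 of 71 Id2 cells. The 4 measured genes of the ISG15 system, in which a ubiquitin-like protein is attached to other proteins, were also higher. The modifier Isg15 stood at 25.3 against 0.34 CPM, the activating enzyme Uba7 at 89.6 against 0.18 CPM, the conjugating enzyme Ube2l6 at 102.02 against 10.7 CPM and the removing protease Usp18 at 92.8 against 1.21 CPM. Each was read in between 15 and 21 Id2 cells and in 2 to 5 GFP cells. Oasl2 and Bst2, an antiviral sensor relative and a tether of budding virus, stood at 59.7 and 48.6 CPM with Id2 and had 0 reads with GFP, but were read in too few cells to count as measured (11 and 12 Id2 cells).

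**Figure D3:**
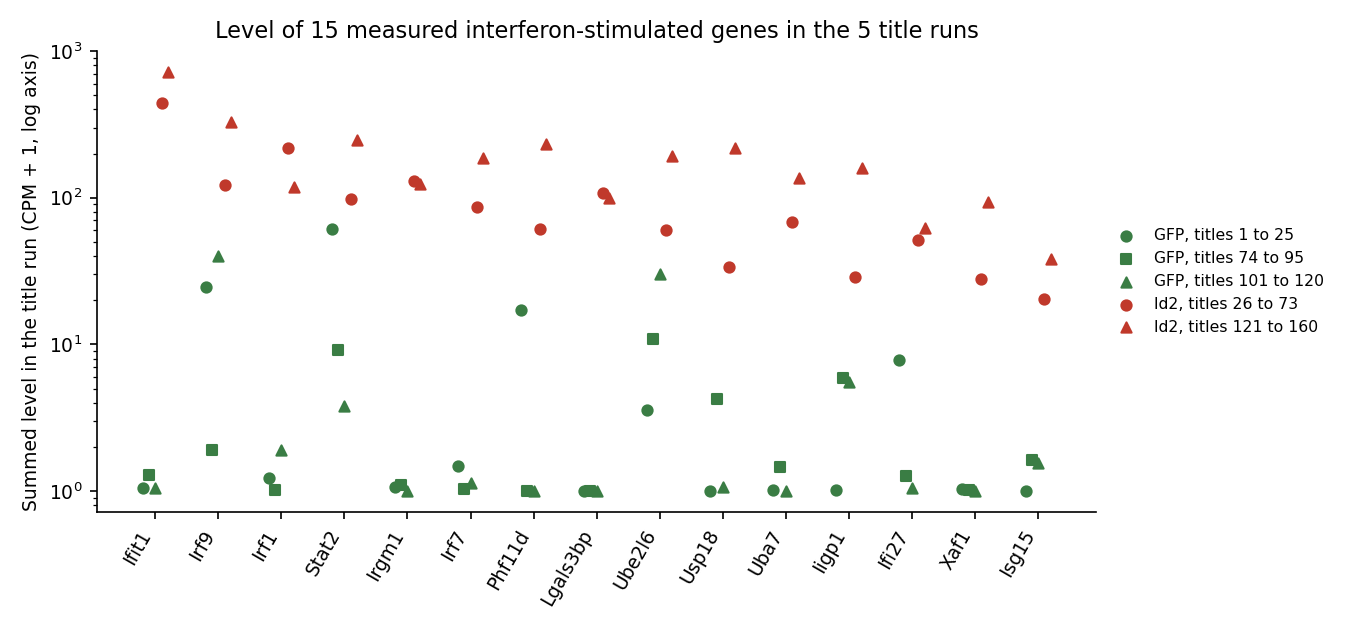
Summed level, in CPM + 1 on a log axis, of 15 measured interferon-stimulated genes in the 3 GFP title runs (green) and the 2 Id2 title runs (red). Both Id2 runs lie above all 3 GFP runs for each gene shown, with the smallest gap at Stat2, where GFP cells with titles 1 to 25 stood at 60.5 CPM.

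The list of interferon-stimulated genes was counted in full, since a gene can pass as measured through the Id2 cells alone. All 65 genes found in the counts had a read in some cell. Over all cells 57 were higher and 8 lower with Id2, 50 were at least 2-fold higher, 0 were at least 2-fold lower, and 11 had no read in any GFP cell. Of all 19207 genes with a read, 15.7% were at least 2-fold higher and 13.5% at least 2-fold lower. The 65 genes had a median log2 ratio of 3.02. Of the 16 that counted as measured, 11 reached 5 CPM in Id2 cells only, so their ratios could hardly be other than high; all 16 were at least 2-fold higher in both title sets (4.49% of measured genes were). Their median was 4.85, and 4.04 and 6.29 in the 2 sets. The 5 measured members that reached 5 CPM in GFP cells too were likewise at least 2-fold higher in both sets.

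Summed over the list, interferon-stimulated transcripts made up 0.09 to 13973 CPM per Id2 cell, with a median of 1896 CPM, and 0 to 1287 CPM per GFP cell, with a median of 63.3 CPM. The highest GFP cell was exceeded by 46 of 71 Id2 cells (64.8%, 52.5% to 75.8%), while the other 25 Id2 cells overlapped with the GFP cells. It was exceeded by 26 of 43 Id2 cells in the first title set and by 20 of 28 in the second. The 3 GFP runs stood at 167, 122.5 and 168 CPM and the 2 Id2 runs at 2685 and 4778 CPM. The levels of the list differed from cell to cell by orders of magnitude in both groups.

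Microglia markers were higher with Id2 as well. Of 18 markers 14 were at least 2-fold higher with Id2 and 2 at least 2-fold lower (15.7% and 13.5% of all genes with a read). Their summed level was 0 to 10808 CPM per Id2 cell (median 127.98) and 0 to 10016 CPM per GFP cell (median 8.80). Over the groups the 18 markers summed to 665 CPM with Id2 and 199 CPM with GFP. Among them C1qa and C1qb stood at 88.4 and 82.9 CPM with Id2 and at 16.8 and 25.6 CPM with GFP. With the 14 cells left out in which microglia markers reached 1000 CPM, Ifit1 stood at 506 against 0.13 CPM and Irgm1 at 130.6 against 0.07 CPM, and the median of the measured interferon list was 5.06. Among the remaining cells 40 of 59 Id2 cells exceeded the highest GFP cell in summed interferon-stimulated transcripts. Of 10 Id2 cells with no read of any microglia marker, 5 exceeded it. Single members did depend on the microglia-rich cells: Ifitm3, a membrane antiviral protein, stood at 31.8 CPM with them and 0.88 CPM when they were left out, and Rsad2 at 40 and 18.6 CPM. Of 15 astrocyte markers, 7 were at least 2-fold higher with Id2 and 0 at least 2-fold lower, summing to 518 against 339 CPM. Of 11 endothelial and mural markers, 3 were at least 2-fold higher and 0 at least 2-fold lower, summing to 48.6 against 12.6 CPM. How far RNA of such cells enters the level of any single gene was not tested.

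Of 10 genes for interferons themselves, 3 had a read in any cell, and together they summed to 0.10 CPM with Id2 and 0.22 CPM with GFP. This list and the following pair were added after the values of the others had been seen. Among 11 genes for interferon receptors, their kinases and inhibitors, 5 were measured and none was at least 2-fold apart in both sets. The median log2 ratio of the 5 was 0.33 over all cells, 0.55 in the first title set and -0.41 in the second. Over all cells 10 of the 11 were higher, 5 at least 2-fold, and 0 were at least 2-fold lower (15.7% and 13.5% of all genes with a read). The receptor chains Ifnar1 and Ifnar2 stood at 31.7 and 25 CPM with Id2 and 22.2 and 17 CPM with GFP, and the kinase genes Jak1 and Tyk2 at 201 and 32.9 CPM against 159.5 and 45.5 CPM. Among 16 genes that sense foreign nucleic acid or relay that signal, 4 were measured and 1 was at least 2-fold higher in both sets (4.49% of measured genes were). Over all cells 11 of the 16 were higher and 5 lower. At least 2-fold higher were 5, and 0 were at least 2-fold lower (15.7% and 13.5% of all genes with a read). The relay kinase Tbk1 was nearly level (97.6 against 98 CPM), and Irf3, its substrate, had ratios of 0.84 and -2.28 in the 2 sets. The RNA sensors Ifih1 (7.43 CPM against 0 reads) and Ddx58 (19 against 2.38 CPM), which are themselves interferon-stimulated, were read in 7 and 8 Id2 cells.

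MHC class I presentation genes were higher as a group, with exceptions among the chaperones. Of 24 genes, 16 were at least 2-fold higher and 1 at least 2-fold lower over all cells, beside 15.7% and 13.5% of all genes with a read. Of 12 measured, 7 were at least 2-fold higher in both title sets and 0 lower (4.49% and 4.59% of measured genes), with a median of 1.83, and 1.42 and 3.78 in the 2 sets. Of these 12, 3 reached 5 CPM in Id2 cells only; among the other 9, 4 were at least 2-fold higher in both sets. B2m (ENSMUSG00000060802.8, chromosome 2, 122147686 to 122153083, plus strand), the light chain of class I molecules, ranged from 0 to 1667 CPM per Id2 cell (median 33.9) and from 0 to 483 CPM per GFP cell (median 0), and 12 Id2 cells lay above every GFP cell. It stood at 196 CPM (194 to 197) against 41 CPM (40.2 to 41.9), a 4.76-fold difference. The heavy chain genes H2-D1 and H2-K1 stood at 213 against 22 CPM and 174 against 0.01 CPM, the latter from 2 reads in all GFP cells and a ratio of 19319 with a counting interval of 5348 to 159532. A single cell gave 57.2% of the H2-K1 reads of the Id2 group. H2-T22, a non-classical class I gene, stood at 150 against 7.57 CPM, but at 45 CPM in Id2 cells without the microglia-rich ones. Heavy chain genes resemble each other in sequence, so the split of reads between them is uncertain. Tapbp, which loads peptides, stood at 62.5 against 2.98 CPM, and the peptide transporter Tap1 at 7.92 against 0.03 CPM. The general chaperones Calr (281 against 181 CPM), Canx (221 against 212 CPM) and Pdia3 (342 against 261 CPM) stayed under 2-fold. The immunoproteasome subunits Psmb8 and Psmb9 were read in the first title set (14.9 and 7.69 CPM in its Id2 cells) and stood at 0 and 0.01 CPM in Id2 cells of the second.

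The promoter windows of 4 of these genes are printed to show where the ISRE core lies in a gene from each role: the effector genes Ifit1 and Irgm1, the signalling gene Stat2 and the presentation gene B2m. They were chosen because they hold the core. Each runs from 250 bases before to 50 bases after the start of the gene in RefSeq (build GRCm38.p6), 5′ to 3′ on the gene's strand, at chr19:34640639-34640938 (plus strand) for Ifit1, chr11:48871371-48871670 (minus strand) for Irgm1, chr10:128270248-128270547 (plus strand) for Stat2 and chr2:122147437-122147736 (plus strand) for B2m. Capitals mark the core, GAAA followed by any 2 bases and GAAA again, or its reverse complement with TTTC in place of GAAA.
Ifit1: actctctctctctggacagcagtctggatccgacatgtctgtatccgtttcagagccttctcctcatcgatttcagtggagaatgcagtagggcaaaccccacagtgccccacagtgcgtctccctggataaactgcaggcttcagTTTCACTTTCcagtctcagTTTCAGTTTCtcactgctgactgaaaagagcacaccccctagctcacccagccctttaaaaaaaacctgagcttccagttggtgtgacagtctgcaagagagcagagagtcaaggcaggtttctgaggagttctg
Irgm1: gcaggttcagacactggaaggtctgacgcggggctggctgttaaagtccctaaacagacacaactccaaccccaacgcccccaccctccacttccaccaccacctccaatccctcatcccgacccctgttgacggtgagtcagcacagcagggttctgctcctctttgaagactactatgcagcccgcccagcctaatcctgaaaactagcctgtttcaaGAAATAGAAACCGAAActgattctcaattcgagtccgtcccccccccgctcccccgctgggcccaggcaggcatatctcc
Stat2: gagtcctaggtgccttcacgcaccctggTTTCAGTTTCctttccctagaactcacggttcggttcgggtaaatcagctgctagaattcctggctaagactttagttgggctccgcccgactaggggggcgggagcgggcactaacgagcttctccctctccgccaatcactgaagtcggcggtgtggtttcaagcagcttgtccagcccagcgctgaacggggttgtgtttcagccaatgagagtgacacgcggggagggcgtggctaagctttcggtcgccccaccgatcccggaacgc
B2m: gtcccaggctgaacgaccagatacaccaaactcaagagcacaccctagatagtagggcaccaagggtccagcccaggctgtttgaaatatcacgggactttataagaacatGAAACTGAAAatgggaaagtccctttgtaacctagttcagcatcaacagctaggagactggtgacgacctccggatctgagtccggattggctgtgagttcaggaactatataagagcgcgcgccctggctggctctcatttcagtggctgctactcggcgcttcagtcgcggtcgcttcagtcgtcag
Ifit1 holds 2 copies of the core, the nearer at 85 bases before the start, Irgm1 holds 2 overlapping copies at 30 and 24 bases, Stat2 holds 1 at 222 bases and B2m holds 1. Searched on both strands, the core occurred in the first window of 25 of 52 interferon-stimulated genes with an entry (48.1%), including 4 of 12 measured ones, and of 5 of 20 MHC class I genes (25%). It occurred in 3.44% of all 32851 windows of this length and in 2.72% of the windows of measured genes. A match describes these letters and shows no binding.

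Stat3, which carries the signal of cytokines such as interleukin 6 and is itself on the lists of axon growth and inflammatory genes, ranged from 0 to 1695 CPM per Id2 cell, with a median of 1.03 CPM. In GFP cells it ranged from 0 to 98.8 CPM, with a median of 0 CPM. It stood at 161 CPM (159.4 to 162) against 4.96 CPM (4.67 to 5.26), 32.4-fold higher, and 18 Id2 cells exceeded every GFP cell. Stat3 (ENSMUSG00000004040.16, chromosome 11, 100885098 to 100939540, minus strand) had log2 ratios of 5.07 and 3.92 and stood at 161 against 5.03 CPM without the microglia-rich cells. Phgdh, the first enzyme of serine synthesis, stood at 221 against 20.3 CPM and was read in 32 Id2 and 7 GFP cells, with 10 Id2 cells above every GFP cell. One GFP cell gave 48% of the GFP reads of Phgdh.

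The remaining highest genes differed by 2- to 4-fold over all cells, with wide overlap between single cells. Pak1, a kinase that acts on actin downstream of Rac, ranged from 0 to 6103 CPM with Id2 (median 428) and from 0 to 2174 CPM with GFP (median 16.8). It stood at 800 CPM (797 to 804) against 325 CPM (323 to 327). The surface protein genes Tenm2, a teneurin adhesion molecule, and Rtn4rl1, a relative of the Nogo receptor, stood at 125.4 against 43.9 CPM and 334 against 90.4 CPM. The RNA-binding protein gene Cirbp stood at 206 against 75.8 CPM, Timp2, an inhibitor of matrix metalloproteinases, at 324 against 115.1 CPM, and Pigp, which acts in the synthesis of membrane anchors, at 73.8 against 22 CPM. Between 2 and 10 Id2 cells exceeded every GFP cell for these 6 genes. Ftl1, the ferritin light chain, stood at 677 against 302 CPM, but at 388 against 271 CPM without the microglia-rich cells, under 2-fold. Rtn4rl1 had a log2 ratio of 0.78 without the deepest 10% of cells.

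**Figure D4:**
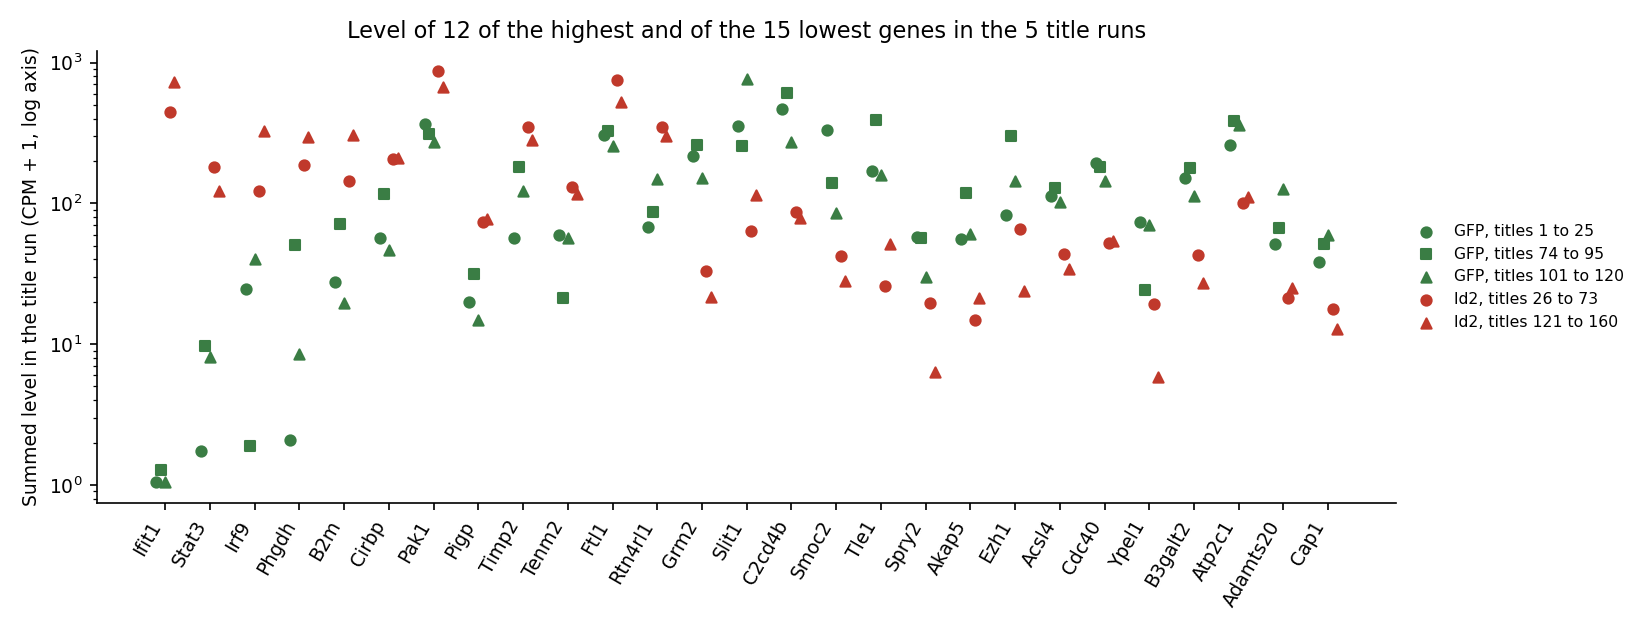
Summed level, in CPM + 1 on a log axis, of 12 of the highest genes and of the 15 lowest genes in the 3 GFP title runs (green) and the 2 Id2 title runs (red). The rule required the runs not to overlap; the distance between them is widest for Ifit1 (721 and 441 CPM against at most 0.28 CPM) and is narrow for genes such as Cap1 (16.6 and 11.8 CPM against 37.3 to 58.7 CPM).

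Grm2, which encodes a metabotropic glutamate receptor of mossy fibre terminals that restrains release, headed the lower genes. It ranged from 0 to 785 CPM per Id2 cell and was at 0 in 56 of 71, while GFP cells ranged from 0 to 1375 CPM with a median of 12.9 CPM and 26 of 59 were at 0. The groups overlapped in their cells, and no Id2 cell exceeded the highest GFP cell. Grm2 (ENSMUSG00000023192.12, chromosome 9, 106643095 to 106656082, minus strand) stood at 28.2 CPM (27.5 to 28.8) against 218 CPM (216 to 220), 7.75-fold lower. Its log2 ratios were nearly equal in the 2 title sets, -2.85 and -2.82, and it was read in 15.5% (8% to 26%) of thinned Id2 cells and 52.5% (39.1% to 65.7%) of thinned GFP cells.

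Slit1, a secreted repellent of growing axons that acts on Robo receptors, ranged from 0 to 1188 CPM per Id2 cell (median 0) and from 0 to 2204 CPM per GFP cell (median 117.1). It stood at 79 CPM (77.9 to 80.1) against 401 CPM (398 to 403), 5.07-fold lower, with log2 ratios of -2.27 and -2.75. Its homologue Slit2 went the other way, at 73.49 against 22.3 CPM (1.70 and 2.41), and was read in 25 Id2 and 11 GFP cells. Slit1 and Slit2 thus differed in direction between the viruses in both title sets.

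A secreted protein and a corepressor separated the groups by the share of cells with a read. Smoc2, a calcium-binding matrix protein, was read in 7 of 71 Id2 cells and 37 of 59 GFP cells and stood at 36.5 against 208 CPM. Tle1, a corepressor of the Groucho family, was read in 16 Id2 and 35 GFP cells and stood at 33.2 against 248 CPM. C2cd4b, a small protein with a calcium-binding type of domain, stood at 82.5 CPM (81.4 to 83.7) against 476 CPM (473 to 479), and a single cell gave 41.9% of its Id2 reads. For none of the 15 lowest genes did an Id2 cell exceed the highest GFP cell.

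The other lowest genes act in signalling, in chromatin, on RNA and at membranes. Spry2, an inhibitor of growth factor signalling, stood at 14.3 against 50.4 CPM, and Akap5, which anchors protein kinase A and calcineurin at synapses, at 16.1 against 78.6 CPM. Ezh1, a Polycomb histone methyltransferase, stood at 51.1 against 175 CPM, and the splicing factor gene Cdc40 at 51.6 against 178 CPM. Acsl4, which activates arachidonic acid, stood at 39.8 against 115.2 CPM, the Golgi calcium pump gene Atp2c1 at 102.3 against 326 CPM, the galactosyltransferase gene B3galt2 at 36.7 against 152.7 CPM, and Ypel1 at 13.9 against 53.9 CPM. Adamts20, a secreted protease, stood at 21.6 against 71.5 CPM, and Cap1, an actin regulator, at 15 against 46.6 CPM. Ezh1 had a ratio of -0.99 when only GFP cells with titles 1 to 25, at 82.1 CPM, served as controls of the first set. In the promoter windows of the 13 lowest genes with an entry, the E-box CAGCTG occurred in 5 (38.5%) and CAGGTG, in either orientation, in 5 (38.5%), while the ISRE core occurred in 0. In the windows of the 11 highest genes with an entry these E-boxes occurred in 3 (27.3%) and 4 (36.4%), and in the windows of measured genes in 13.5% and 16.5%. The shares were above those of measured genes on either side, from few windows, and no difference was tested.

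Genes that mark mature granule cells were lower on balance, whereas identity factors were level. Of 21 measured effector markers 15 were lower and 6 higher, with a median of -0.36 (-0.65 and -0.30 in the 2 sets); 4 were at least 2-fold lower in both sets and 0 at least 2-fold higher. Of all measured genes 4128 of 7846 were lower, and 4.59% were at least 2-fold lower in both sets. Those 4 were Lct, Npnt, Tdo2 and C1ql2. C1ql2, a secreted organiser of mossy fibre synapses, ranged from 0 to 2096 CPM per Id2 cell (median 0.27) and from 0 to 3981 CPM per GFP cell (median 554). It stood at 380 CPM (378 to 383) against 857 CPM (853 to 861), with ratios of -1.09 and -1.16. Tdo2, an enzyme of tryptophan breakdown, stood at 22.9 against 130 CPM. Lct, the gene of lactase, was read in 17 GFP cells at 84.3 CPM over the group, and had 2 reads in all Id2 cells, a ratio of 10798 with a counting interval of 2989 to 89166. Among 19 measured identity factors, 9 were higher and 10 lower, and Prox1, the factor that specifies granule cells, stood at 295 against 296 CPM. Calb1, a calcium buffer of granule cells, was also level, at 1155 against 1118 CPM.

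Axon growth and neuronal immaturity genes were slightly higher at the median, by 0.41 for 23 measured axon growth genes and 0.50 for 8 measured immature neuron genes. Few of them passed 2-fold in both sets (2 axon growth genes higher and 2 lower, beside 4.49% and 4.59% of all measured genes). Stmn2, a microtubule regulator of growing axons, stood at 220 CPM (218 to 222) against 55.5 CPM (54.5 to 56.5), with ratios of 1.73 and 2.50, and 7 Id2 cells exceeded every GFP cell. The other higher member was Stat3. The lower members were Kif5a, a kinesin that carries cargo along axons, at 40.5 against 143.7 CPM, and the transcription factor Klf7, at 33 against 88.4 CPM. The neurofilament genes Nefl and Nefm, which build the axonal skeleton, stood at 493 against 1130 CPM and 371 against 788 CPM. The median of the axon growth list was close to 0 without the deepest 10% of cells.

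Of 27 measured guidance genes, 1 (Slit2) was at least 2-fold higher in both sets and 5 were lower, beside 4.49% and 4.59% of all measured genes, with a median of -0.13. Besides Slit1, the lower ones named by the rule were the semaphorin gene Sema5a (75 against 170 CPM) and the Eph receptor gene Epha6 (18.7 against 41.9 CPM). Of 38 measured synaptic adhesion genes, 2 were at least 2-fold higher in both sets and 2 lower. These shares are near the 4.49% and 4.59% of all measured genes. Tenm2 was among the higher. The lower were Cdh13, a cadherin without a cytoplasmic domain (42.2 against 127.6 CPM), and Slitrk1, an organiser of synapses (13.5 against 41.2 CPM). Of 35 measured vesicle genes, 24 were lower and 11 higher (median -0.35), and 9 were lower in both Id2 runs than in all GFP runs (12.1% of measured genes were). The vesicle GTPase genes Rab3c (10.9 against 46.1 CPM) and Rab3b (0.12 against 32.9 CPM) were the 2 that passed 2-fold in both sets, a share near the 4.59% of all measured genes. Synaptic genes detected in most cells differed less: Snap25, a component of the fusion complex, stood at 2028 against 2783 CPM.

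Among receptors and channels, most members stayed within 2-fold. Gabra5, a subunit of GABA-A receptors, stood at 123.2 against 260 CPM. Of 11 measured GABA receptor genes 1 was at least 2-fold lower in both sets and 0 higher. Gria2, an AMPA receptor subunit, stood at 1156 against 1577 CPM. Of 14 measured glutamate receptor genes 1 was at least 2-fold higher in both sets, and only Grm2 was at least 2-fold lower. Of all measured genes 4.49% were higher and 4.59% lower by this measure. The potassium channel genes Kcna4 (73.2 against 20.5 CPM) and Kcnq3 (137.5 against 61.2 CPM) were the 2 of 30 measured that were at least 2-fold higher in both, a share near the 4.49% of all measured genes, and 0 were lower.

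Of 42 measured activity-regulated genes, 1 was at least 2-fold higher in both sets and 5 were lower (median -0.21), beside 4.49% and 4.59% of all measured genes. The lower ones included the nuclear receptor gene Nr4a2 (167 against 583 CPM), Ptgs2, an enzyme of prostaglandin synthesis (41.3 against 206 CPM), the phosphatase gene Dusp4 (26.7 against 89.7 CPM) and the pseudokinase gene Trib1 (56.3 against 161 CPM). Nr4a2 ranged from 0 to 2220 CPM per Id2 cell (median 1.14) and from 0 to 2992 CPM per GFP cell (median 280). In Id2 cells of the second set Ptgs2 stood at 0.24 CPM, and in those of the first at 61.2 CPM. Of 21 measured BMP, activin and TGF-beta genes, 1 was at least 2-fold higher in both sets and 2 were lower, beside the same shares of all measured genes. Ltbp3, which binds latent TGF-beta, was higher (80.4 against 10.1 CPM). The receptor gene Acvr1c (0.34 against 35.9 CPM) and Fstl1, a secreted relative of follistatin (2.28 against 23.3 CPM), were lower. Among 13 measured Wnt genes, 1 was at least 2-fold higher in both sets and 1 lower, again beside 4.49% and 4.59% of all measured genes. The ligand Wnt7b was higher (101.5 against 35.2 CPM) and the receptor Lgr4 lower (25.8 against 58 CPM). The median of the Wnt list was -0.80 in the first title set and 0.97 in the second. Counts this small do not set either list apart from all genes.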

How the data were processed

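Cytosol of single granule cells was drawn through a patch pipette and made into libraries with Nextera XT, per the labels' protocols. Trimmomatic, STAR, featureCounts and the build GRCm38 are named, without versions, per the submitters' processing notes. Use of strand in counting was not given in the sources used here, and overlapping and antisense genes cannot be told apart. The authors deposited counts, whole reads per gene, for 22800 genes in 291 cells, and a scaled signal for 252 cells that equals the counts times 1 factor per cell. The table whose name says normalized is the one with whole numbers, so units were taken from the values. All 291 columns matched a title (0 did not), and labelled cells without a column (8 of the 2 virus groups labelled as passing) were not used here. Cells labelled as failing served in an alternative alone.

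The labels gave the groups. Counts were summed over cells and scaled to CPM with Id2 reads left out of the totals, except for the level of Id2 itself. No animal is named, so no test was run, and no p-value or standard error was made from cells. Counts of genes past 2-fold come from counts summed over cells and are not results of a test. Poisson intervals (levels) and Clopper-Pearson intervals (shares of cells) were exact at 95%; reads without molecular identifiers are not independent molecules. Detection was also counted with each cell thinned at random to 100000 reads. Named genes were Id1 to Id4, Tcf3, Tcf4 and Tcf12; up to 15 highest and 15 lowest measured genes by the rule in the report, all 4 ratios being at least 2-fold, without predicted, mitochondrial and ribosomal protein genes; and up to 4 measured members of each gene list by the same ratio where all 4 shared a sign. Members of the interferon, MHC class I and microglia lists, marker genes and the further genes of those lists were named beyond this rule after their values were seen. The members and gene lists were chosen with earlier results of these data known. A pair of named genes is not reported here. Gene positions are from GENCODE vM21. The code for the ratios was run on simulated cells with known fold changes. Those cells were drawn from a pooled profile without a difference between title sets, so the run does not bear on the disagreement of the sets. Python 3.11.15, numpy 2.4.6, pandas 2.3.3, scipy 1.17.1 and matplotlib 3.10.9 were used.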

Additional observations from a re-analysis of the deposited data

How the results depend on the processing

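No paired analysis was possible because the labels name no animal and give the groups no shared replicate. The log2 ratio of Id2, 8.63 over all cells, was 8.76 in titles up to 95, 8.36 in titles above 100, 8.66 after thinning, 9.37 and 8.15 with GFP cells of titles 1 to 25 or of titles 74 to 95 as the only controls of the first set, 8.57 with a pseudocount of 5 CPM, 8.60 from the scaled signal and 8.43 without the deepest 10% of cells. Genes at least 2-fold higher numbered 352 in both title sets, 1058 in the first alone, 1872 in the second alone, 869 with the sets pooled and 973 with no filter other than 1 read. Genes at least 2-fold lower numbered 360, 1411, 1407, 893 and 720 in the same order. Requiring 2 sets to pass lowers a count by its construction, and the last setting tested 19207 genes. Under the other alternatives both counts stayed within 1.5 times. None of the 93 named genes at least 2-fold apart changed direction under any alternative (1488 values). This is largely fixed by their choice. Apart from the Id and E protein genes, they were named because their ratios shared a sign in both title sets. The single-set, pooled and mean-over-cells alternatives reuse those ratios, so a reversal there was impossible or unlikely. Of the named genes under 2-fold, 6 changed sign or came to 0 under some alternative, among them Tcf3, Tcf4, Tcf12 and Id4. Of the 28 highest and lowest genes, Ftl1 without microglia-rich cells (0.51), Rtn4rl1 without the deepest cells (0.78) and Ezh1 against titles 1 to 25 (-0.99) dropped below 2-fold. Among the 7 lists with a median of at least 0.5 in size, 1 value reversed: mitochondrial-genome genes, 1.499 over all cells, stood at -0.18 in titles above 100. The cause was not tested. Of lists with smaller medians 17 changed sign under some alternative, the guidance and synaptic adhesion genes among them, and granule cell effector markers, vesicle and activity-regulated genes did not. Depth limits genes read in few cells: a gene with 0 reads in all 59 thinned GFP cells may still have a read at that depth in up to 6.06% of cells, and presence below it is not limited.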

Other observations

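Transcripts of the mitochondrial genome summed to 8824 CPM with Id2 and 3152 CPM with GFP. They ranged from 389 to 219548 CPM per Id2 cell with a median of 2655 CPM, and from 394 to 105079 CPM per GFP cell with a median of 2462 CPM, so the medians were close, and 2 Id2 cells and 1 GFP cell lay far above the others of their groups. The nuclear genes of the respiratory chain had a median log2 ratio of -0.07 over 75 measured genes, and 0 of them were at least 2-fold apart in 1 direction in both title sets. Ubiquitin and proteasome genes (38 measured, median -0.09, 0 apart in both sets) and cytosolic ribosomal protein genes (77 measured, median 0.13, 1 higher in both sets, Rpl12 at 104.2 against 41.1 CPM) were likewise close to level.

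Cdkn1a, an inhibitor of cyclin-dependent kinases and a target of p53, stood at 78.5 CPM (77.4 to 79.6) with Id2 and 3.59 CPM (3.35 to 3.85) with GFP, with log2 ratios of 3.88 and 6.26. It was read in 18 Id2 and 4 GFP cells. The p53, apoptosis and DNA damage list had a median of 0.10 over 20 measured members, Cdkn1a among them. Of these, 2 were at least 2-fold higher in both sets (4.49% of all measured genes) and 0 lower. Bax and Apaf1, genes of the apoptotic pathway, were lower in both Id2 title runs (48.4 against 75.6 CPM and 110 against 233 CPM). Of the 20 members, 2 were below all 3 GFP runs in both Id2 runs, a share no higher than the 12.1% of all measured genes. Among heat shock genes, Hspa1a (72.1 against 18.4 CPM) and Hspa1b (19.7 against 7.54 CPM), near-identical copies between which reads may be split, were higher and the cochaperone gene Dnajb1 was lower (239 against 673 CPM). Of 17 measured cell cycle genes 3 were at least 2-fold lower in both sets and 1 higher (4.59% and 4.49% of all measured genes). Over all cells 9 were lower and 8 higher. Among the 3 were Cenpa, a histone of centromeres (20.3 against 102.98 CPM), and E2f3, a factor of cell cycle entry (7.49 against 43.3 CPM).

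Fibcd1, on the list of CA pyramidal cell markers, was read in 3 Id2 and 13 GFP cells and stood at 3.14 against 46.2 CPM. The 8 measured CA pyramidal markers had a median of -0.35, and the interneuron marker Gad1, which granule cells also express, stood at 370 against 577 CPM while Gad2 had 0 reads with Id2 and 0.85 CPM with GFP. Il18, an inflammatory cytokine gene, stood at 100.9 against 14.1 CPM, with ratios of 3.86 and 0.77 in the 2 title sets. Over all cells 16 of 32 inflammatory and NF-kappaB genes with a read were at least 2-fold higher and 3 at least 2-fold lower (15.7% and 13.5% of all genes with a read), and 6 of the 32 had no read in any GFP cell.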
